A study of Drosophila melanogaster with 3 samples.

Results

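The JNK pathway and AP-1 genes of Drosophila are described here as a set of 9 genes, taken from a fixed list of names among the 13945 protein-coding genes on the chromosome arms used: egr, msn, Tak1, slpr, hep, bsk, Jra, kay and puc. Their chromatin was read in 1 group of embryos, whole animals of 10 to 24 hours from a transgenic line that carries PHDP, a paired-type homeodomain protein, with GFP fused to its C-terminus. Chromatin from 3 biological replicates was precipitated with an antibody to GFP and sequenced (ChIP-seq). All cell types of the embryo are mixed in each library, and all replicates come from 1 transgenic line. No untagged embryos were analysed here, so peaks that would form without the tagged protein cannot be told apart from peaks of PHDP-GFP. The authors deposited 30000 peaks for each replicate, 30000 for the pooled reads and 7092 that passed the irreproducible discovery rate (IDR) filter. The IDR list is the same as the strongest 7092 peaks of the pooled list. A place in it therefore does not show that the rank of a given peak held across replicates. A peak is placed below by its summit, and a gene is called bound when an IDR summit lies 1 kb or less from any of its annotated start sites. The authors' signal value differs in scale between lists: over the 28 IDR peaks described below, the matched signals had medians of 133, 141 and 85.9 in replicates 1, 2 and 3. A mean ± SD over replicates therefore also holds this difference between lists, and ranks within a list are given where replicates are set side by side. Signals and ranks given without a replicate number are those of the IDR list.

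The c-Jun N-terminal kinase (JNK) pathway is a kinase relay that responds to stress, wounding and tumour necrosis factor, and in the fly embryo it is best known for dorsal closure, when the lateral epidermal sheets meet over the back. Egr, the fly tumour necrosis factor, and other inputs act through the Ste20-type kinase Msn and the MAP3 kinases Tak1 and Slpr on the MAP2 kinase Hep, which phosphorylates the fly JNK, Bsk. Bsk activates the AP-1 transcription factor, a dimer of Jra (Jun) and Kay (Fos), and AP-1 switches on puc, whose phosphatase product inactivates Bsk and so closes a feedback loop.

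The sequences below are those of peaks on which the account of the 9 loci turns, printed from the dm6 assembly (release 6), 5′ to 3′ on the strand of the gene. Capitals mark TAAT read on either strand (TAAT or ATTA), the core that many homeodomains recognise. The first pair are the 201 bases around the start-site summits of Tak1, one for each of its promoters, at chrX:20525027-20525227 and chrX:20519126-20519326 (minus strand). The next 3 are the strongest peaks of msn, puc and kay, all of them in introns, at chr3L:2584225-2584425 (minus strand), chr3R:8113968-8114168 and chr3R:29773878-29774078 (plus strand). The last pair are the 100 bases just before the start sites of puc-RA and kay-RB, at chr3R:8105232-8105331 and chr3R:29782509-29782608 (plus strand), shown because these are the start sites of their genes that carry an IDR peak.
Tak1-RA start-site peak: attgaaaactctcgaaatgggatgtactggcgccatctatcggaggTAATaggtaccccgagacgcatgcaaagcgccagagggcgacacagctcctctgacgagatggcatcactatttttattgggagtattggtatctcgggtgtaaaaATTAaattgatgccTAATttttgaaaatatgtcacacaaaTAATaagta
Tak1-RB start-site peak: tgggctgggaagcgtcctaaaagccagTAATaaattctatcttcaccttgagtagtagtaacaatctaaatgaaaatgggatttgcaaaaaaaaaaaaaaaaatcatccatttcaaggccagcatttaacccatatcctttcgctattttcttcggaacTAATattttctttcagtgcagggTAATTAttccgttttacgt
msn intron peak: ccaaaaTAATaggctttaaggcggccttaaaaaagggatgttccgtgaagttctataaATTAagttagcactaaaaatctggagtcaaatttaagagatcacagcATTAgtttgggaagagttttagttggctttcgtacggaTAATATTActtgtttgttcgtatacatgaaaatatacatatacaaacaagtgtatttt
puc intron peak: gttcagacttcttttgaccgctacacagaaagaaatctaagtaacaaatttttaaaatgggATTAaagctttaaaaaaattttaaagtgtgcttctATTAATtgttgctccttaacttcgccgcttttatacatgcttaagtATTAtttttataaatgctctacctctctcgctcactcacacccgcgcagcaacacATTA
kay intron peak: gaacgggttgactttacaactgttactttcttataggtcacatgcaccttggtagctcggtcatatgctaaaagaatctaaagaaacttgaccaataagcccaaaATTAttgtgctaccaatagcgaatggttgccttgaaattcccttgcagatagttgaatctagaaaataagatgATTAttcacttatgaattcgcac
before puc-RA: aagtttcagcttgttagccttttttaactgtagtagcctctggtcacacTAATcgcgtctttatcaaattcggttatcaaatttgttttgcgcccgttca
before kay-RB: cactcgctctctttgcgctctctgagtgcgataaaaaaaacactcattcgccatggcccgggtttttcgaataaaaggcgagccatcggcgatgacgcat
The Tak1-RB window is the only one of the 7 that holds the full palindrome TAATTA, 82 bases downstream of the summit. Counting overlapping matches, the msn and puc windows hold 5 TAAT cores each, the 2 Tak1 windows 4 each and the kay window 2. The 100 bases before puc-RA hold 1 core and those before kay-RB none.

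The genes egr, msn, Tak1, Jra, kay and puc were bound, and slpr, hep and bsk were not. That is 6 of 9 genes (66.7%), where 28.9% of all protein-coding genes were bound by the same rule. The unbound genes all encode kinases, one each of the MAP3 kinase, MAP2 kinase and JNK tiers. With 500 bp the same 6 genes were bound (25.1% of all genes), and so they were with 2 kb (35.2% of all genes). Counting only the outermost start site of each gene left 5, without kay (26.8% of all genes). In the full pooled list 8 of the 9 genes, all but slpr, had a summit at a start site, but so did 50.6% of all genes. Among the strongest 7092 peaks of each replicate, 6 of the 9 genes had a summit at a start site in replicate 1 (28.4% of all genes), 4 in replicate 2 (30.3%) and 7 in replicate 3 (29.7%), a mean of 5.67 ± 1.53 (SD, n = 3). The genes puc, Tak1, msn and egr were bound in each of these lists. In replicate 1 msn was bound only through a summit at the start of RpL8, a neighbouring gene. The peak between the start sites of msn ranked 8451 there. Jra and kay dropped out in replicate 2, and bsk came in through replicate 3. No set test was run, and 9 chosen genes do not show that the pathway stands apart from other genes.

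Within the gene bodies and 2 kb on each side lay 28 IDR summits (0.395% of the list), and again all of them were in the 6 bound genes; 42.4% of all protein-coding genes had such a summit. Of the 28, 8 lay at a start site of their gene and 20 elsewhere. Counting the starts of all protein-coding genes, 11 (39.3%) were within 1 kb of one, beside 51.4% of the whole IDR list. By position, 18 were in introns, 4 in 5′ UTRs, 3 upstream and 3 downstream of their gene. The kinase gene msn held 9 and the phosphatase gene puc 8, together 60.7% of all. For 14 of the 28 the nearest start site was that of another gene, non-coding genes included, and 7 lay within 500 bp of such a start. In 4 cases that gene was protein-coding, and these cannot be assigned to the pathway gene by position.

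**Figure D1:**
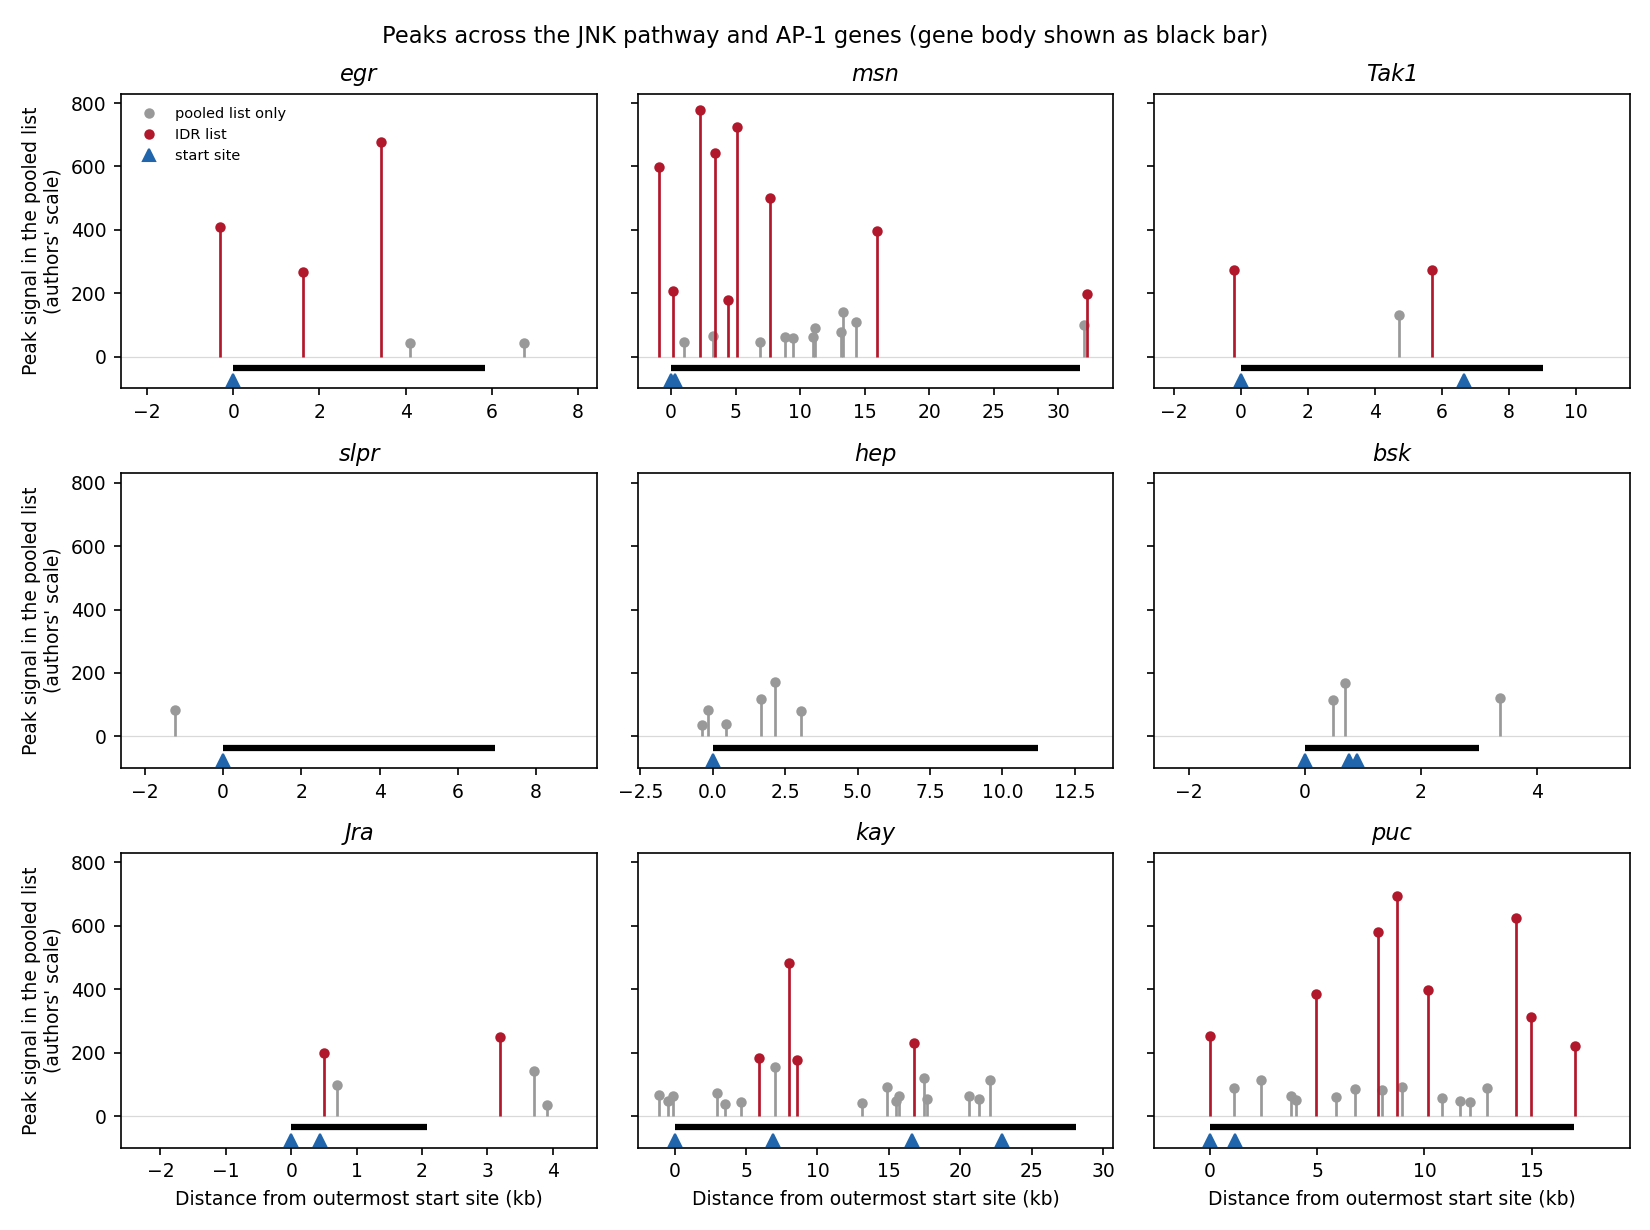
Peaks across the 9 loci, with the distance from each gene's outermost start site in kb along the transcribed strand on the x axis and the peak signal in the pooled list (the authors' scale) on the y axis. Red stems are IDR peaks, grey stems are peaks of the pooled list only, black bars are gene bodies and blue triangles are start sites. The tallest stems of msn and puc stand inside the gene bodies, but the msn stem of signal 597 stands upstream, at the start of RpL8. The genes slpr, hep and bsk have grey stems only.

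The ligand gene egr (FBgn0033483) lies at chr2R:10078366-10084210 on the plus strand, is 5845 bp long and has 1 start site, shared by its 2 transcripts. Its start-site peak had its summit 311 bp upstream, with a signal of 410 and rank 2324. The replicate signals there were 202, 108 and 112 (141 ± 53.1, SD, n = 3), ranks 1439, 3919 and 2580 in their lists. A stronger peak stood 3433 bp inside the gene, in an intron, with a signal of 679, rank 1103 and replicate signals of 214, 291 and 183 (229 ± 55.9, n = 3). That summit was 474 bp upstream of snoRNA:Or-ACA6, a small nucleolar RNA gene within egr. The third peak, 1623 bp into the gene, had a signal of 266 and replicate signals of 123, 111 and 48.7, which rank 3030, 3763 and 8142. Downstream of egr, 12269 bp and 2 other protein-coding genes separate it from Jra.

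The Ste20-type kinase gene msn (FBgn0010909) lies at chr3L:2554847-2586540 on the minus strand and spans 31694 bp, with 8 transcripts from 2 start sites 286 bp apart. It had more IDR summits than any other of the 9 genes, 9 in its body and 2 kb on each side, or 2.52 per 10 kb. This count includes summits in the margins at the starts of RpL8 and Spn, described below. Without the margins msn did not exceed puc. Among all protein-coding genes, counted with the same margins, 99.5% had fewer summits and 90.6% had a lower density. The strongest peak of the whole set, shown above, was in the first part of the gene, 1929 bp from the nearest start site. Its signal was 777 (rank 861), with 293, 251 and 214 in the replicates (253 ± 39.8, n = 3). The second strongest stood 4792 bp in, with a signal of 725 (rank 984) and replicate signals of 234, 270 and 238 (247 ± 19.5, n = 3). The peaks at 3131, 7369 and 15672 bp had signals of 643, 499 and 396. A weak peak at 4157 bp, with a signal of 177 and rank 6830, was near the end of the list.

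At the start sites of msn the signal was lower. The peak between both of its start sites, 130 bp downstream of the site of 7 transcripts and 156 bp upstream of that of msn-RF, had a signal of 207 and rank 5702. Its replicate signals were 55.7, 92.8 and 55.5 (68.0 ± 21.5, n = 3), and in every replicate it was below the 2 strongest msn peaks. A peak with a signal of 597 stood 924 bp upstream of msn, but 8 bp downstream of the start of RpL8, a gene for a protein of the large ribosomal subunit. Likewise the summit beyond the 3′ end of msn, with a signal of 198, was 31 bp upstream of the start of Spn. The summit at 130 bp meets the rule for msn by itself, but among IDR peaks at or above the list's median only the RpL8 peak remains.

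The MAP3 kinase gene Tak1 (FBgn0026323) lies at chrX:20515908-20524928 on the minus strand and is transcribed from a pair of start sites. Each had an IDR peak of its own, a layout that none of the other genes with several start sites showed. The Tak1-RA peak, 199 bp upstream, had a signal of 273 and replicate signals of 91.0, 141 and 61.9 (98.1 ± 40.2, n = 3). The Tak1-RB peak lay in an intron of the longer transcript, 978 bp upstream of the start site, which is just inside the limit of 1 kb. Its signal was 274 and its replicate signals were 108, 102 and 55.8 (88.7 ± 28.7, n = 3). In replicate 3 the matching summit was 58 bp away, and no summit of that replicate lay within 1 kb of the Tak1-RB start site. The Tak1-RB peak had the higher signal of the pair in replicate 1 and the Tak1-RA peak in replicates 2 and 3, and the means differed by less than the spread between replicates.

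The other MAP3 kinase gene of the set, slpr (FBgn0030018, chrX:8170229-8177185, minus strand), had no IDR peak and not even a pooled summit within 1 kb of the single start site of its 4 transcripts. The nearest pooled peak was 1223 bp upstream, with a pooled signal of 81.9 and pooled rank 14888, and it was 141 bp upstream of a start of sdt, the neighbouring gene. Its replicate signals were 38.1, 25.2 and 24.9. The strongest replicate peaks at the slpr start site lay at 43 bp, -685 bp and -194 bp in replicates 1, 2 and 3, more than 100 bp from each other. Replicate 2 also had a weaker summit at -35 bp (signal 17.1, rank 28099), within 100 bp of that of replicate 1.

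For hep (FBgn0010303, chrX:13079205-13090434, minus strand), the MAP2 kinase gene, the strongest peak missed the IDR list narrowly. It was an intron peak 2148 bp from the start site of its 7 transcripts, with a pooled signal of 171.6 and pooled rank 7101, whereas the IDR list ends at pooled rank 7092 with a lowest signal of 171.7. The replicate signals were 53.5, 57.6 and 69.8 (60.3 ± 8.48, n = 3). At the start site itself the pooled peak was weak, 154 bp upstream with a pooled signal of 82.8 and pooled rank 14741. The start of lic, which encodes a MAP2 kinase of the p38 pathway, was 557 bp from that summit.

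The gene for JNK itself, bsk (FBgn0000229, chr2L:10247502-10250501, minus strand), has 3 start sites and was near the end of the IDR list too. Its strongest pooled peak was 61 bp upstream of the bsk-RF start site, with a pooled signal of 168 and pooled rank 7275. Replicates 1 and 2 had summits there, at -69 and -61 bp, with signals of 60.8 (rank 7565) and 68.8 (rank 7121). The strongest summit of replicate 3 was at -197 bp, with a signal of 64.5 and rank 5695, and did not match that pooled peak within 100 bp. It was 76 bp from a weaker pooled summit at -273 bp, with a pooled signal of 113 and pooled rank 10997. So bsk was bound by the strongest peaks of replicate 3 and not by those of replicates 1 and 2. A pooled peak downstream of bsk was 63 bp upstream of chico, the insulin receptor substrate gene.

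**Figure D2:**
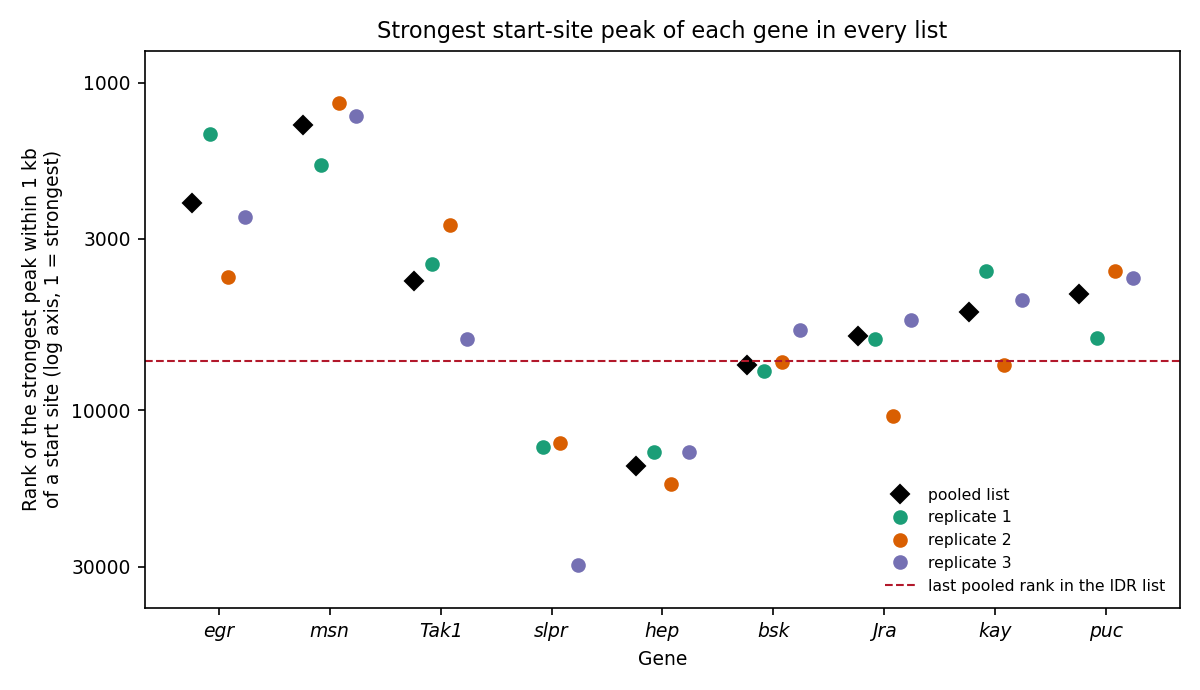
Rank (log axis, strongest at the top) of the strongest peak within 1 kb of a start site of each gene, in the pooled list (black diamonds) and in the 3 replicate lists (coloured circles); the dashed line is pooled rank 7092, where the IDR list ends. Genes run from the ligand through the kinases to the transcription factors and puc; slpr has no pooled peak, hep lies below the line in every list, and the points of bsk lie around it.

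Of the AP-1 genes, Jra (FBgn0001291, chr2R:10096480-10098556, plus strand, 2077 bp) had a weak start-site peak. The summit was in the 5′ UTR, 50 bp downstream of the start of Jra-RA and Jra-RC and 498 bp downstream of that of Jra-RB, so that it serves both start sites. Its signal was 200 and its rank 5936. Replicates 1 and 3 gave 72.9 and 68.1. In replicate 2 no summit lay within 100 bp: the nearest was 138 bp away, with a signal of 49.7 and rank 10414. A second IDR peak, with a signal of 248, lay beyond the 3′ end of Jra and 1 bp from the start of 14-3-3zeta. The start of RpLP0-like, 2612 bp beyond the start-site summit, lay between Jra and this second peak.

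The Fos gene kay (FBgn0001297, chr3R:29765995-29794113, plus strand) spans 28119 bp and has 4 start sites, each used by different transcripts. An IDR peak stood at just 1 of them, kay-RB, 113 bp downstream in the 5′ UTR, with a signal of 229 and rank 5006. Its replicate signals were 105, 62.1 and 75.4 (80.8 ± 21.9, n = 3), with ranks of 3754, 8066 and 4606. At the other start sites the nearest pooled summits were at 136 bp for kay-RA and kay-RG (pooled rank 7914), at -141 bp for kay-RD (pooled rank 18943) and at -876 bp for kay-RF (pooled rank 11012).

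The strongest kay peak was in an intron, 1086 bp downstream of the kay-RA and kay-RG start site and 1073 bp downstream of the start of lncRNA:CR46110. Its signal was 482 (rank 1836), and the replicates gave 195, 172 and 127 (165 ± 34.9, n = 3). A peak 1002 bp upstream of the same start site, with a signal of 185, fell just outside the limit of 1 kb. It had no match in replicate 1, and ranked 3404 in replicate 2 and 5275 in replicate 3. The peak at 1663 bp had no match in replicate 1 either. Its signal was 160 (rank 2252) in replicate 2 and 30.4 (rank 14031) in replicate 3, so its mean rests on replicate 2.

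The phosphatase gene puc (FBgn0243512), the known read-out of JNK activity, lies at chr3R:8105332-8122294 on the plus strand and spans 16963 bp. It held 8 IDR summits in its body and 2 kb on each side, or 3.82 per 10 kb, the highest density of the 9 genes. Counted with the same margins, 96.5% of all protein-coding genes had a lower density and 99.3% fewer summits. Among the strongest peaks of each replicate the locus held 9, 7 and 8 (mean 8 ± 1, SD, n = 3). At puc-RA the summit fell on the first base of the transcript, with a signal of 253 and rank 4416. The replicate signals were 73.2, 111 and 83.5 (89.3 ± 19.7, n = 3). The start site of puc-RB, 1156 bp further on, had no IDR peak, and its pooled peak at -18 bp was weak (pooled rank 13947).

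The introns of puc carried the higher signals. The strongest summit was 7580 bp from the nearest start site, with a signal of 695 (rank 1056) and replicate signals of 246, 260 and 199 (235 ± 31.7, n = 3). It lay 65 bp upstream of lncRNA:CR44331, a non-coding RNA gene within the intron, and the summit at 6691 bp, with a signal of 581, lay inside that gene. The summit at 13126 bp had a signal of 626 and replicate signals of 207, 216 and 187 (203 ± 14.9, n = 3). Each of these 3 intron peaks was above the start-site peak in every replicate. The remaining intron summits, at 3794, 9007 and 13811 bp, had signals of 386, 398 and 312. The eighth, with a signal of 222, was downstream of puc and 386 bp upstream of CG7878.

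Across the 28 peaks, the signals at start sites of their own gene ran from 200 to 597 with a median of 263. Those elsewhere ran from 177 to 777 with a median of 397. The ranges overlap, and no test was run, since the peaks of 1 gene share a locus. The highest start-site value is the peak at the RpL8 start. The whole IDR list was split by the start of any protein-coding gene. There the order of the medians was the opposite: 313 for peaks within 1 kb of such a start and 289 for the rest. By that split 11 of the 28 peaks were at a start, and the other 17, all in introns, had a median signal of 482. Of the 10 strongest peaks of the 9 genes, 9 were in introns, more than 1 kb from any start of a protein-coding gene. Starts of non-coding genes were left out of this split. The puc summits at 7580 and 6691 bp were 65 and 824 bp from that of lncRNA:CR44331. The egr summit at 3433 bp was 474 bp from that of snoRNA:Or-ACA6. For all 28 the median signal was 349 and the median rank 2972, beside 301 and 3546.5 over the whole IDR list. The best rank reached was 861.

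A summit within 100 bp was found in all 3 replicates for 25 of the 28 peaks (89.3%), close to the 90.5% of the whole IDR list. The exceptions are the start-site peak of Jra, absent in replicate 2, and the kay peaks at -1002 and 1663 bp, absent in replicate 1. Because the IDR list was made from the replicates, such a match is not independent of the filter. The mean replicate signal, taken over lists of unlike scale, had a median of 120 over the 28 peaks.

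**Figure D3:**
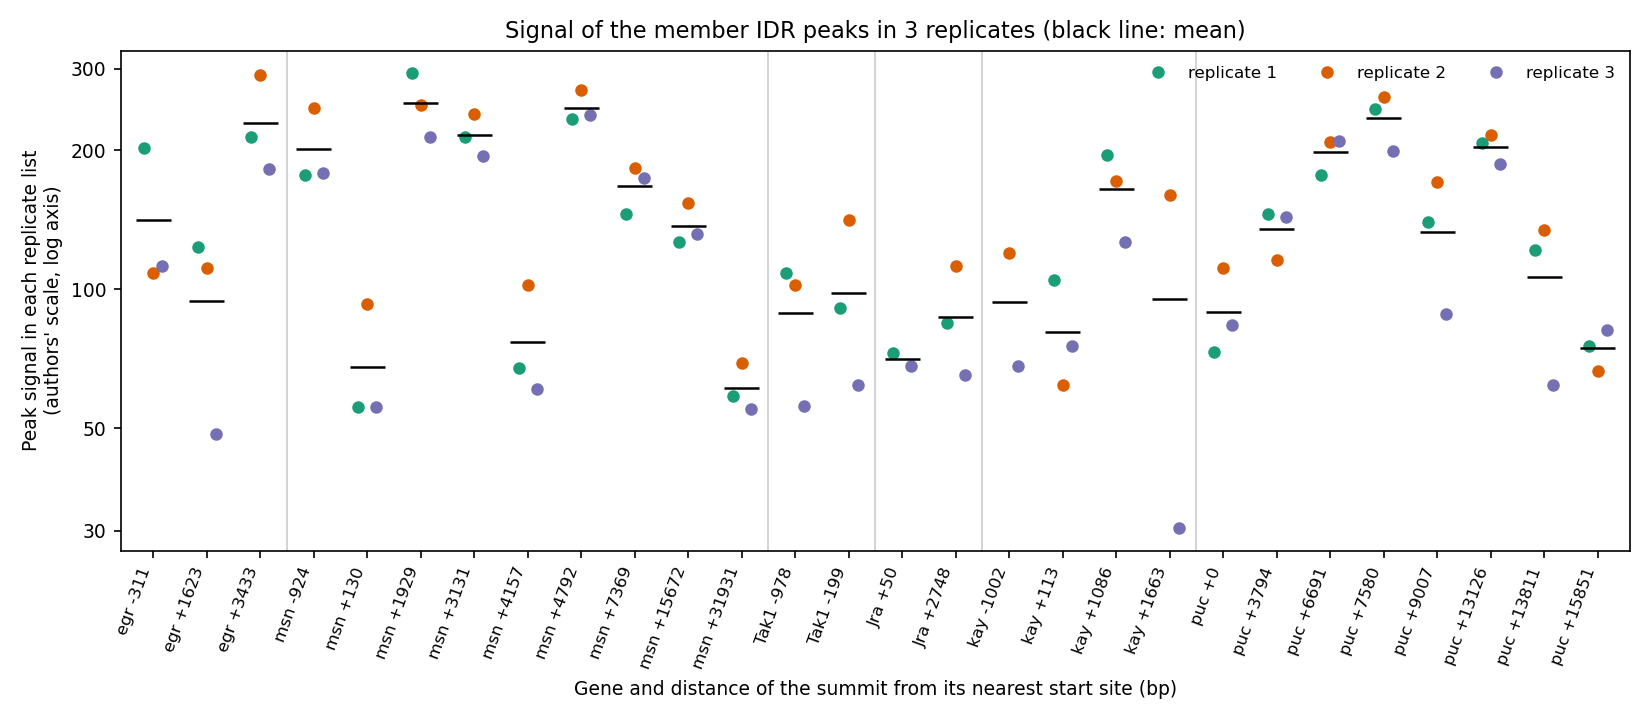
Signal of the 28 IDR peaks in each replicate list (y axis, the authors' scale, log axis), by gene and distance of the summit from the nearest start site of that gene in bp (x axis); circles are replicates, black lines are means, and a missing circle is a replicate with no summit within 100 bp. The msn peak at 1929 bp has the highest mean, 253, and the kay peak at 1663 bp the widest spread, 30.4 to 160.

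Few of the summits held the words searched for. TAATTA, the palindrome bound by many homeodomain proteins, was in 3 of 28 windows of 201 bp (10.7%), beside 18.8% of all IDR windows. The 3 peaks were the Tak1-RB peak, the start-site peak of egr and the peak downstream of Jra at the start of 14-3-3zeta. Words of TAAT and ATTA spaced by 2 or 3 bases, the layout of paired-type homeodomain dimers, were in none, beside 2.65% and 3.07% of all IDR windows. The AP-1 word TGANTCA, read on both strands, was in none either (5.26% of all IDR windows). TATCGATA, the DRE word found in promoters of many housekeeping genes, was in 1, the start-site peak of Jra (3.57% of the windows, beside 3.12%). The single core TAAT was in 25 of 28 windows (89.3%) and in 92.0% of all IDR windows, with a median of 3 per window in both; it was looked at after the other words. Absence of a word says only that its letters are not within 100 bp of the summit. The median GC content was 36.3% in the windows of the 9 genes and 33.8% in all IDR windows.

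Beyond the 9 genes, 21 of 34 other genes of the pathway and its surroundings were bound (61.8%), beside the same 28.9% of all protein-coding genes. The adaptors that link receptor and kinases were bound in 3 of 3 cases: Traf6 with a signal of 592, Traf4 with 394 and Tab2 with 177. The Traf6 peak had no match within 100 bp in replicate 3. The Tab2 summit was 13 bp from the start of mip40. Of the receptor genes for Egr, grnd was bound, by a peak with a signal of 218 that was nearer to the start of CG10283, and wgn was not. The MAP3 kinase genes were bound in 3 of 3 cases, with 764 at wnd, 350 at Ask1 and 275 at Mekk1. Mkk4, the other MAP2 kinase gene for Bsk, was bound with a signal of 2619 (rank 67), while hep was not. The Mkk4 summit was 171 bp upstream of its start and 117 bp upstream of that of SLIRP2. Its replicate signals were 824, 1059 and 741 (875 ± 165, n = 3), in each replicate above all of the 28 peaks.

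Of the scaffold genes 1 of 3 was bound, POSH, with a signal of 1901. The POSH summit was 102 bp upstream of its start and 174 bp upstream of that of Ns2. Of 8 genes for small GTPases and non-receptor tyrosine kinases 5 were bound, the strongest being Mtl with 4900 (rank 9), Src64B with 1216 and Shark with 414. The Mtl summit was nearer to the start of CG5611. Of the bZIP partners of AP-1, Atf3 was bound with 2758 (rank 57) and replicate signals of 1055, 990 and 716 (920 ± 180, n = 3), and Atf-2 was not. The genes listed here as inhibitors were bound in 3 of 3 cases. The signals were 693 at CYLD, a deubiquitinase gene, 468 at aop, an Ets-type repressor gene, and 267 at raw, a negative regulator of JNK signalling. The role is that of the chosen list, and the direction in which CYLD acts on JNK was not tested.

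Target and dorsal closure genes were bound in 3 of 9 cases (33.3%), near the 28.9% of all genes. The signals were low: 267 at chic, the profilin gene, 192 at Mmp1, a matrix metalloproteinase gene, and 172 at zip, the gene of the non-muscle myosin heavy chain. The chic summit was 25 bp from the start of eIF4A, and the zip summit was nearer to the start of uzip. Ets21C, Ilp8, upd3, scaf, jub and cher were not bound. In all, 6 of the 21 bound genes owed their strongest peak to a summit nearer to the start of another gene. That count leaves out summits close to another start but nearer to their own, as at Traf6, POSH and Rho1. Ranks of the strongest start-site peak ran from 9 to 7052 with a median of 2456.

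**Figure D4:**
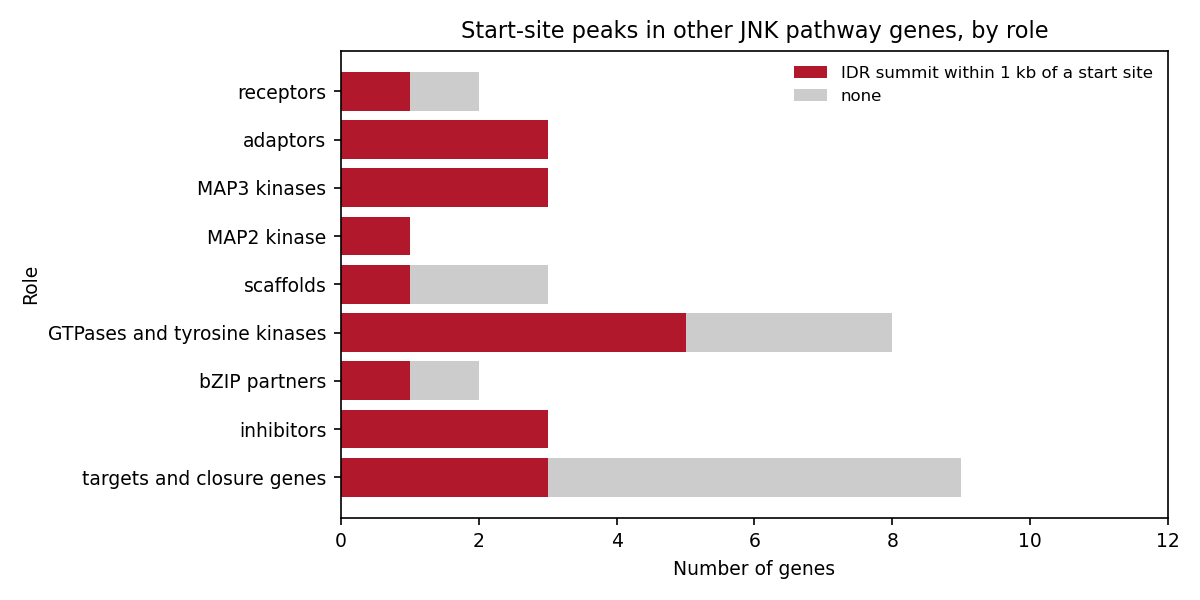
Number of genes (x axis) in each role of the 34 other JNK pathway genes (y axis) that had an IDR summit within 1 kb of a start site (red) or had none (grey). Adaptors, MAP3 kinases and the genes listed as inhibitors are red throughout, 3 of 3 each, and targets and closure genes are red in 3 of 9.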

How the data were processed

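Anti-GFP ChIP-seq peak lists of 3 biological replicates were used. Per the labels, chromatin was sonicated and the assembly was dm6; which aligner or caller made them is not given in the sources used here. For each peak, the authors deposited a signal value, a −log10 q-value and a summit offset. Signal ranked peaks within a list; means over replicates join lists of unlike scale. The −log10 q-value, deposited by the authors, is the same (4.24) in all IDR peaks and was not used. Sequencing depth is unknown.

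Summits on 6 arms were set against start sites of Ensembl release 115 (1-based coordinates; the 9 genes have the same coordinates in RefSeq) with Python 3.11.15 and pandas 2.3.3. Replicate peaks matched within 100 bp. Words were sought within 100 bp of summits. Named were all 9 genes with their peaks and, of the other pathway genes, up to 3 bound genes with the strongest peak per role. Counts were checked on simulated data. One group of samples allows no contrast, so nothing was tested. Members and lists were chosen with earlier results of these data known. Alternatives covered start distance, the outermost start site only, margins, lists, match distance, window width and omission of each replicate.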

Additional observations from a re-analysis of the deposited data

How the results depend on the processing

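Some counts depended on the choice of peaks or windows; the cause was not tested. With the weaker part of the IDR list (below its median signal) left out, 2 of the 9 genes stayed bound (msn, then only through the peak at the RpL8 start, and egr; 17.2% of all genes), 12 of the 34 other pathway genes were bound, and 15 summits remained in the bodies. With a match limit of 50 bp, 16 of 28 peaks were matched in all replicates. In windows of 50 bp on each side 0 summits held TAATTA (11.2% of all IDR windows) and 0 the DRE word (1.34%). In windows of 150 bp on each side 3 held the AP-1 word (10.7%), beside 7.52% of all IDR windows. Leaving out 1 replicate kept the 4998 to 5095 IDR peaks matched within 100 bp among the strongest 7092 peaks of the other replicates. In these shorter lists 4 to 6 of the 9 genes were bound (21.6 to 22.7% of all genes). Jra and kay were missing without replicate 1 and without replicate 3. Both of those lists require replicate 2, where the kay-RB peak ranked 8066 and the Jra start-site peak had no match. The lists without replicate 2 and without replicate 3 require replicate 1, and there msn was bound only through the peak at the RpL8 start. In the shorter lists 15 to 16 of the other pathway genes were bound (beside the same 21.6 to 22.7%), and 21 to 23 summits lay in the bodies. Of all 28 peaks, 25 to 27 were matched in the full lists of the other replicates. At other match limits 54 of 56 recomputed mean signals moved by less than 1 SD; the exceptions were the Jra start-site peak at a match limit of 200 bp (63.6) and the egr start-site peak at 50 bp (202). Without 1 replicate, 2 of 84 means moved by over 1.5 times, both of the kay peak at 1663 bp (30.4 without replicate 2, 160 without replicate 3). No paired analysis was possible because there is only 1 group of samples. Depth is unknown, so weak peaks cannot be told from absence.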
